A study of Mus musculus with 8 samples.

Results

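The semaphorins, plexins, neuropilins, ephrins and Eph receptors are guidance proteins that cells use to attract or repel one another, and bone cells use several of them to signal between osteoclasts, which resorb bone, and osteoblasts, which build it. Members were taken by gene symbol: Sema, Efna, Efnb, Epha or Ephb followed by a digit, Plxn followed by a letter and a digit, and Nrp1 and Nrp2. The rule found 54 of the 27133 genes in the count table: 20 semaphorins, 14 Eph receptors, 9 plexins, 8 ephrins, 2 neuropilins and the antisense gene Plxna4os1. Of these, 52 passed the filter on low counts and were tested. Epha10, with 4 counts over all 8 libraries, and Epha6, with 10, did not pass.

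RNA came from the parietal bone, a flat bone of the skull vault, of C57BL6J pups. All pups received antibody through the skull on postnatal days 2, 4 and 6 and were perfused on day 9. In 4 libraries (isotype 2, 3, 4 and 5) the antibody was a control isotype, and in 4 (anti-CSF1R 7, 8, 9 and 10) it blocked CSF1R, the growth factor receptor that macrophages and osteoclast precursors need to survive; its stated purpose was to deplete myeloid cells. No further genotype is labelled. Whether 1 library means 1 pup is not stated, and the p-values therefore reflect the spread from library to library, which may be technical.

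Semaphorins are secreted or membrane proteins that bind plexins, and most secreted class 3 semaphorins also need a neuropilin. Ephrins are held in the membrane and bind Eph receptor tyrosine kinases on a touching cell, so that signals can pass into both cells. In the mouse, osteoclasts release or display Sema4D, which acts through plexin-B1 on osteoblasts to hold back bone formation, while Sema3A from the osteoblast lineage acts through neuropilin-1 and plexin-A1 on osteoclast precursors to hold back their differentiation. Ephrin-B2 on osteoclasts faces EphB4 on osteoblasts, and ephrin-A2 faces EphA2. By these roles the osteoclast-side list held Sema4d, Efnb2, Efna2, Plxna1 and Nrp1, and the osteoblast-side list held Sema3a, Sema3b, Plxnb1, Ephb4 and Epha2. The sides name roles described in bone, not measured cells: Efnb2, Ephb4 and Nrp1 are also genes of blood vessels.

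Total counts ran from 57496279 to 69118931 per library. Isotype 3 and 4 stood apart from the other 6 libraries: both lay below all of these in 16 of the 52 tested guidance genes (against 36.5% of all genes tested) and both above in 22 (against 32.8%). Across the 52 genes, the log2 difference between isotype 3 and 4 and isotype 2 and 5 had a Spearman correlation of 0.72 with the GC content of the longest annotated transcript, and 0.69 over 16005 genes; the points share the same libraries. Results are therefore given with all 8 libraries and again with isotype 2 and 5 alone against the 4 anti-CSF1R libraries. The second comparison was chosen from these same data. Leaving out the control libraries that stood apart narrows the control spread. Genes that pass in that fit are therefore given as a description, and its p-values do not keep their usual meaning. Levels are in CPM, counts scaled to a library total of 1000000 with TMM factors, which even out library composition. Osteoclast markers (Acp5, Ctsk and others) were lower with anti-CSF1R in 8 of 11 genes by the edgeR test described next, and summed to 5938 to 13776 CPM for isotype against 2273 to 3051 CPM for anti-CSF1R. Macrophage markers were lower in 7 of 8 and summed to 436 to 939 CPM for isotype against 71.5 to 129 CPM for anti-CSF1R. Osteoblast markers (Bglap, Col1a1 and others) were called in 0 of 8. An unadjusted p under 0.05 in edgeR was reached by 3 of the 8, 1 higher and 2 lower with anti-CSF1R. Log2 fold changes of the 8 were positive in 4 and negative in 4, with a median of 0.02. Osteoblast markers summed to 96893 to 159205 CPM for isotype against 80188 to 98531 CPM for anti-CSF1R. A sum mostly follows its most abundant genes and does not show the direction of each. Isotype 3 and 4 had the higher control sums: 13776 and 10724 CPM for osteoclast markers, against 5938 and 6366 CPM in isotype 2 and 5. For macrophage markers they had 939 and 723 CPM, against 436 and 463 CPM. For osteoblast markers they had 145304 and 159205 CPM, against 112240 and 96893 CPM. The comparison with isotype 2 and 5 alone thus leaves out the control libraries highest in these markers. Against isotype 2 and 5 alone 10 of 11 osteoclast and 8 of 8 macrophage markers were lower by the same test. There 0 of 8 osteoblast markers were called (2 had an unadjusted p under 0.05, 1 higher and 1 lower).

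With all 8 libraries, 0 of the 52 guidance genes differed between the treatments in edgeR's quasi-likelihood test at an adjusted p under 0.05. Among all 17028 genes tested, 0.846% did, 0.822% lower and 0.0235% higher with anti-CSF1R. An unadjusted p under 0.05 was reached by 10 of the 52 (19.2%, against 17.9% of all genes), and limma-voom also called 0 (0.84% of all genes) while DESeq2 called 1, Sema4d, lower (3.69% of all genes lower). The 2 groups of libraries did not overlap in 10 of the 52 (19.2%, against 15.0% of all genes): Sema4d, Efna2, Ephb2 and Plxnb2 were lower in every anti-CSF1R library (8.34% of all genes), and Nrp2, Plxna2, Sema6d, Sema3a, Efna5 and Sema4g were higher (6.61%). The shares of guidance genes were near the shares of all genes by these 2 counts.

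Log2 fold changes (anti-CSF1R over isotype) ranged from -1.09 for Epha8 to 0.86 for Sema3a, with a median of -0.06 against 0.03 over all genes. With isotype 2 and 5 alone, 2 of 52 passed the test (3.06% of all genes did): Sema4d lower (2.38% of all genes lower) and Sema7a higher (0.679% of all genes higher). An unadjusted p under 0.05 was reached there by 16 of 52, 11 higher and 5 lower, a larger share than the 15.1% of all genes. That comparison was chosen from these data, so its p-values do not keep their usual meaning. In the same fit 63.5% of guidance genes had a positive log2 fold change, against 50.8% of all genes. There the median was 0.10 against 0.00 over all genes, and 50 of 52 lay within 0.5 of 0 on the log2 scale, against 35 of 52 with all 8 libraries. All genes moved the same way, from 63.3% to 87.8% within 0.5. The exceptions were Sema3c at -1.06 and Sema4f at -0.58. In the plot of log2 fold changes the points of the 2 comparisons can be set side by side for each gene.

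**Figure D1:**
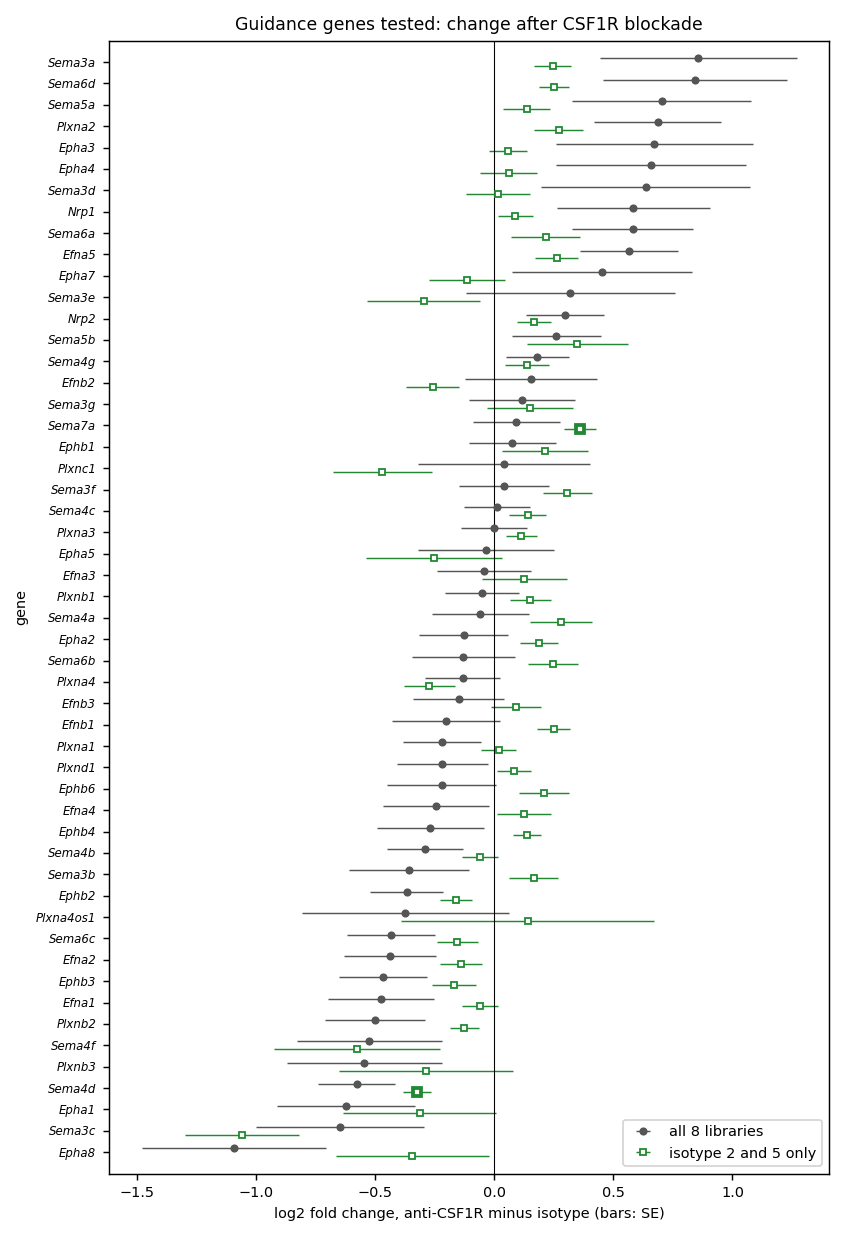
Log2 fold change (anti-CSF1R over isotype, x axis) of each tested guidance gene (y axis, ordered by the value with all 8 libraries), with all 8 libraries (grey circles) and with isotype 2 and 5 alone (green squares). Bars show the standard error and thick squares mark an adjusted p under 0.05, which Sema4d and Sema7a reached with isotype 2 and 5 alone.

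Sema4d, the osteoclast-side ligand, was the member with the smallest p. It stood at 160.0, 214, 219 and 152 CPM in the control libraries isotype 2, 3, 4 and 5, against 127, 119.5, 123 and 129 CPM in anti-CSF1R 7, 8, 9 and 10. Every anti-CSF1R library lay below every isotype library, and the anti-CSF1R libraries lay close together. The means were 186 ± 35.1 CPM for isotype against 125 ± 4.09 CPM for anti-CSF1R (SD, n = 4 each), a level 1.49-fold lower with anti-CSF1R. The log2 fold change was -0.58 ± 0.16 (adjusted p = 0.175, edgeR) with all 8 libraries, so it did not pass the test. With isotype 2 and 5 alone it was -0.33 ± 0.06 and passed (by edgeR, adjusted p = 0.0170). The adjusted p among 17 alternatives had extremes of 0.0170 and 0.451, and the sign was negative in 17 of 17; the 2 alternatives that called it were DESeq2 (adjusted p = 0.0264) and isotype 2 and 5 alone. In bulk tissue, fewer cells of a type and less RNA per cell cannot be told apart.

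The promoters of Sema4d and Sema3a are shown because these genes encode the ligands that the sides send to each other. They are RefSeq sequences (GRCm38.p6), 250 bases before to 50 after an annotated start, printed 5′ to 3′ on the gene's strand. Capitals mark matches, on either strand, to TGGAAA, the core that NFAT factors such as the osteoclast regulator NFATc1 bind, and to TGTGGT, a core of the osteoblast regulator RUNX2. Sema4d has 3 listed starts, and the one shown (chr13:51756634-51756933, minus strand) has 52.0% GC and 1 NFAT match. Sema3a (chr5:13396534-13396833, plus strand) has 41.3% GC, 1 NFAT match and 1 RUNX match.
Sema4d: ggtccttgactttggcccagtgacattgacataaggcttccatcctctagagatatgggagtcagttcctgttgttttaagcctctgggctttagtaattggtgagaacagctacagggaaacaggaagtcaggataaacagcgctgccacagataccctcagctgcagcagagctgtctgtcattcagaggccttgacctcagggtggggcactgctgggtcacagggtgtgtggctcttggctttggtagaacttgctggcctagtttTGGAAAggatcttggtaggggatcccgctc
Sema3a: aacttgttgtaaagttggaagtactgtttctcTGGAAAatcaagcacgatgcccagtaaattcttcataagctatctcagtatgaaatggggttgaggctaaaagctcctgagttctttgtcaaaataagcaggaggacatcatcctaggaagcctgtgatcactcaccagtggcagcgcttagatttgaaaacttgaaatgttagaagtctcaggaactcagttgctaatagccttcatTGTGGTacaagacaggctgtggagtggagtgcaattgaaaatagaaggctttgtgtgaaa
Of 32851 promoters of this length, 21.4% held the NFAT letters and 16.8% the RUNX letters. The letters of PU.1 (GAGGAAGT, in 3.2% of promoters) and AP-1 (TGANTCA, in 7.81%) are not in these 2 windows. At the other 2 starts of Sema4d, 1 window held 1 AP-1 and 1 RUNX match and 1 held none of the 4. The windows were not measured in this study.

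The other osteoclast-side genes did not follow Sema4d together. Ephrin-B2 (Efnb2) stood at 23.7, 11.8, 16.7 and 32.7 CPM in the isotype libraries, against 24.0, 23.6, 22.6 and 24.4 CPM in those given anti-CSF1R. Its anti-CSF1R libraries sat inside the wide isotype range, and the log2 fold change was 0.15 ± 0.28 (adjusted p = 0.696, edgeR), turning to -0.26 (by edgeR, adjusted p = 0.318) with isotype 2 and 5 alone. Ephrin-A2 (Efna2) stood at 11.6, 19.4, 14.2 and 11.4 CPM in the isotype libraries, against 10.2, 10.2, 10.5 and 10.8 CPM in those given anti-CSF1R, with no overlap. Its log2 fold change was -0.44 ± 0.19 (adjusted p = 0.278, edgeR), and -0.14 with isotype 2 and 5 alone.

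Plexin-A1 (Plxna1), the plexin through which Sema3A and Sema6D reach osteoclast precursors, stood at 127, 176, 151 and 114 CPM in the isotype libraries, against 121, 113, 128 and 126 CPM in those given anti-CSF1R. Its groups overlapped, with a log2 fold change of -0.22 ± 0.16 (adjusted p = 0.362, edgeR) that came to 0.02 with isotype 2 and 5 alone. Neuropilin-1 (Nrp1), the Sema3A co-receptor, stood at 91.1, 48.2, 34.5 and 106 CPM in the isotype libraries, against 99.1, 107, 105 and 108 CPM in those given anti-CSF1R. Isotype 3 and 4 were its low libraries, and the log2 fold change of 0.58 ± 0.32 (adjusted p = 0.298, edgeR) came to 0.09 without them. Of the 5 osteoclast-side genes 0 passed with all 8 libraries, with a median log2 fold change of -0.22, and 1 (Sema4d) passed with isotype 2 and 5 alone, with a median of -0.14.

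Among osteoblast-side genes, Sema3a stood at 26.3, 9.56, 6.77 and 26.3 CPM in the control libraries isotype 2, 3, 4 and 5, against 27.9, 32.7, 32.1 and 32.2 CPM in anti-CSF1R 7, 8, 9 and 10. Every anti-CSF1R library lay above every isotype library, but isotype 3 and 4 were far below isotype 2 and 5, which lay close under the anti-CSF1R range. The means were 17.2 ± 10.5 CPM for isotype against 31.2 ± 2.26 CPM for anti-CSF1R (SD, n = 4 each), and the log2 fold change was 0.86 ± 0.41 (adjusted p = 0.281, edgeR). With isotype 2 and 5 alone it was 0.25 ± 0.08 (by edgeR, adjusted p = 0.148). An offset for GC and length gave 0.35 (by edgeR, adjusted p = 0.151). Its adjusted p among all 17 alternatives ran from 0.111 to 0.539. Its transcript is 40.8% GC, near the low end of the family.

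EphB4 (Ephb4), the receptor of ephrin-B2, stood at 73.5, 151, 102 and 79.2 CPM in the isotype libraries, against 84.1, 84.6, 82.2 and 85.6 CPM in those given anti-CSF1R, a log2 fold change of -0.27 ± 0.22 (adjusted p = 0.400, edgeR), or 0.14 with isotype 2 and 5 alone. Its anti-CSF1R libraries lay within the isotype range. Sema3b, a secreted class 3 semaphorin that vitamin D induces in osteoblasts, stood at 65.3, 113, 103 and 49.7 CPM in the isotype libraries, against 68.3, 60.5, 63.0 and 66.7 CPM in those given anti-CSF1R. The groups overlapped, and the log2 fold change of -0.36 ± 0.25 (adjusted p = 0.342, edgeR) was 0.17 with isotype 2 and 5 alone.

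Plexin-B1 (Plxnb1), the Sema4D receptor, stood at 86.1, 111, 110.0 and 82.9 CPM in the isotype libraries, against 105, 83.6, 94.5 and 92.3 CPM in those given anti-CSF1R, a log2 fold change of -0.05 ± 0.15 (adjusted p = 0.816, edgeR), or 0.15 with isotype 2 and 5 alone. EphA2 (Epha2) stood at 75.8, 122, 99.9 and 72.3 CPM in the isotype libraries, against 78.2, 78.1, 90.6 and 91.0 CPM in those given anti-CSF1R, a log2 fold change of -0.13 ± 0.19 (adjusted p = 0.623, edgeR), or 0.19 with isotype 2 and 5 alone. Both genes overlapped between the groups. All 5 osteoblast-side genes had a positive log2 fold change with isotype 2 and 5 alone, from 0.14 to 0.25 with a median of 0.17, and 0 of 5 passed (3 had an unadjusted p under 0.05). In that fit 50.8% of all genes had a positive log2 fold change and 15.1% an unadjusted p under 0.05. Of all 52 guidance genes, 33 had a positive log2 fold change there. An unadjusted p under 0.05 was reached by 16 of the 52, 11 of them higher, so this lean was not limited to the osteoblast side. With all 8 libraries the median of the osteoblast-side genes was -0.13 and 0 of 5 passed in edgeR and by limma-voom or DESeq2. Over all genes the medians were 0.03 with all 8 libraries and 0.00 with isotype 2 and 5 alone.

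**Figure D2:**
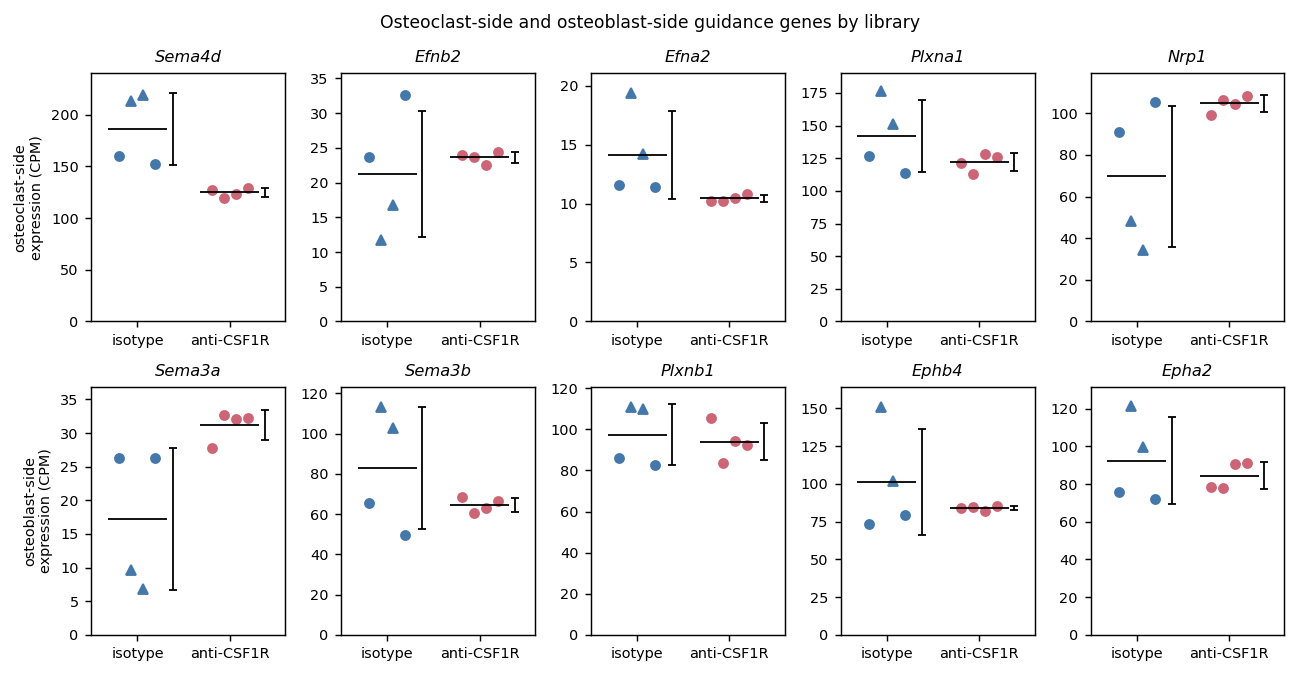
Expression in CPM (y axis, from 0) of the 5 osteoclast-side genes (upper row) and the 5 osteoblast-side genes (lower row) in each library, with triangles for isotype 3 and 4 and circles for the other 6; lines are group means and bars the SD (n = 4). Sema4d and Efna2 lie lower and Sema3a lies higher in all 4 anti-CSF1R libraries, and in all 10 panels both triangles lie on 1 side of the 2 isotype circles.

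The sides were then compared within each library, as the log2 level of an osteoclast-side gene minus that of an osteoblast-side gene (4 pairs; exact two-sided permutation test, with 0.0286 the smallest p that 4 against 4 can give). Sema4d minus Plxnb1, the ligand against its receptor, gave 0.89, 0.94, 1.00 and 0.88 in isotype 2, 3, 4 and 5 and 0.27, 0.52, 0.39 and 0.48 in anti-CSF1R 7, 8, 9 and 10. The groups did not overlap, and the isotype libraries were close together, isotype 3 and 4 included. The difference between groups was -0.52 (exact permutation p = 0.0286, adjusted over 4 pairs 0.0571), from 0.93 ± 0.05 to 0.41 ± 0.11 (SD, n = 4 each), and -0.47 with isotype 2 and 5 alone. It was thus almost the same with and without the libraries that stood apart, and its adjusted p did not pass 0.05. Because its p was already the smallest possible, not passing does not speak to the size of the difference. The lower Sema4d level given above enters this difference and that of the next pair. Neither difference is thus a result separate from it.

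Sema4d minus Sema3a gave 2.61, 4.48, 5.01 and 2.53 in isotype 2, 3, 4 and 5 and 2.19, 1.87, 1.94 and 1.99 in anti-CSF1R 7, 8, 9 and 10. The groups did not overlap, and isotype 3 and 4 were far above the other isotype libraries. The difference was -1.66 (exact permutation p = 0.0286, adjusted over 4 pairs 0.0571), shrinking to -0.57 with isotype 2 and 5 alone, where the smallest possible p is 0.133. Efnb2 minus Ephb4 gave -1.63, -3.67, -2.61 and -1.28 in isotype 2, 3, 4 and 5 and -1.81, -1.84, -1.86 and -1.81 in anti-CSF1R 7, 8, 9 and 10, and differed by 0.47 (exact permutation p = 0.457, adjusted over 4 pairs 0.457), or -0.38 in the other direction with isotype 2 and 5 alone. Nrp1 minus Sema3a, a receptor against its ligand, gave 1.79, 2.33, 2.34 and 2.00 in isotype 2, 3, 4 and 5 and 1.83, 1.70, 1.70 and 1.75 in anti-CSF1R 7, 8, 9 and 10, with overlap, and differed by -0.37 (exact permutation p = 0.0571, adjusted over 4 pairs 0.0762), and by -0.15 with isotype 2 and 5 alone.

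**Figure D3:**
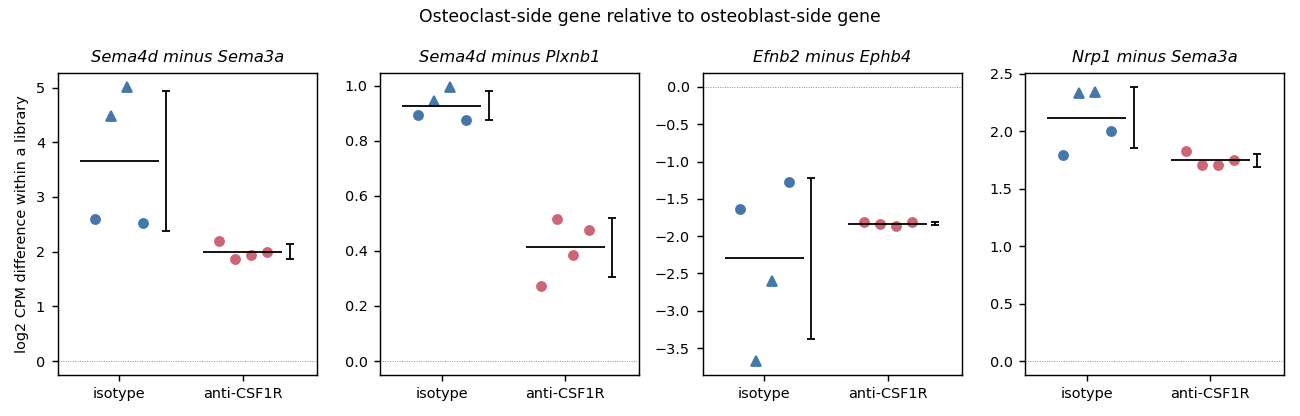
Log2 level of the first gene minus the second gene (y axis) in each library for the 4 pairs, each on its own scale, with triangles for isotype 3 and 4, lines for group means and bars for the SD (n = 4). In Sema4d minus Plxnb1 the 4 isotype libraries lie together from 0.88 to 1.00 and the 4 anti-CSF1R libraries from 0.27 to 0.52.

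Plexin-A1 signals in osteoclast precursors with TREM2 and the adaptor DAP12 (Tyrobp), and these partners were lower with anti-CSF1R while Plxna1 did not pass. Trem2 stood at 2.55, 6.80, 4.95 and 3.56 CPM in the isotype libraries, against 1.08, 0.805, 0.865 and 0.726 CPM in those given anti-CSF1R, without overlap. It was 5.12-fold lower, a log2 fold change of -2.36 ± 0.32 (adjusted p = 0.0189, edgeR). Tyrobp stood at 51.3, 158, 89.6 and 48.0 CPM in the isotype libraries, against 19.0, 18.3, 16.3 and 10.1 CPM in those given anti-CSF1R, also without overlap, with means of 86.6 ± 51.0 CPM for isotype against 15.9 ± 4.03 CPM for anti-CSF1R (SD, n = 4 each). It was 5.44-fold lower, a log2 fold change of -2.44 ± 0.41 (adjusted p = 0.0328, edgeR). With isotype 2 and 5 alone the log2 fold changes were -1.82 and -1.64 and both passed (by edgeR, adjusted p = 0.00281 and 0.0297). Among 17 alternatives Trem2 had adjusted p-values between 7.14e-10 and 0.106 and Tyrobp between 1.68e-07 and 0.137, and 12 called each. The 5 that lost the call left out isotype 4 or any 1 of the 4 anti-CSF1R libraries; without isotype 4 the log2 fold changes were -2.32 and -2.45, and without 1 anti-CSF1R library they lay between -2.48 and -2.28 for Trem2 and between -2.54 and -2.28 for Tyrobp, about as large as with all 8. Trem2 and Tyrobp are themselves genes of myeloid cells, and the macrophage and osteoclast marker sums given above moved with them; the part of cell numbers in these values was not tested.

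**Figure D4:**
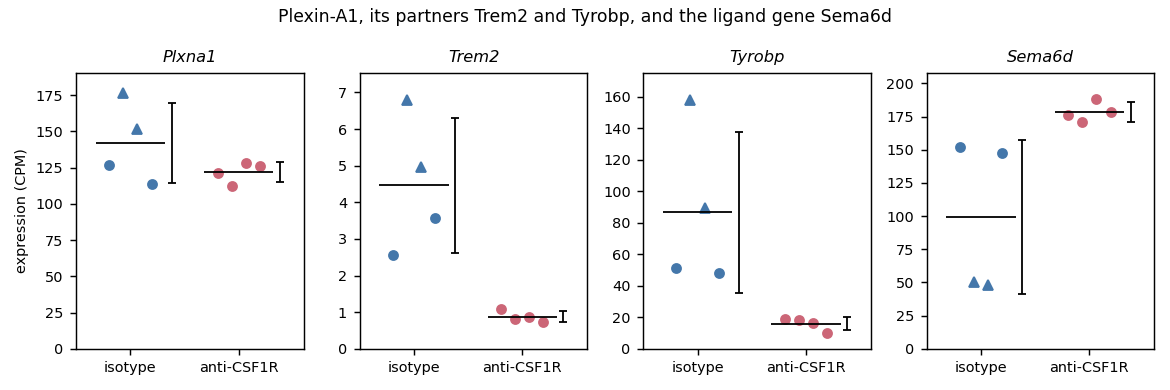
Expression in CPM (y axis, from 0) of Plxna1, its partner genes Trem2 and Tyrobp, and the ligand gene Sema6d in each library, with triangles for isotype 3 and 4, lines for group means and bars for the SD (n = 4). Trem2 and Tyrobp are lower in all 4 anti-CSF1R libraries, while Plxna1 overlaps between groups.

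These 2 genes were the calls among 25 tested plexin and neuropilin co-receptors and effectors (26 listed; 2 lower, 0 higher, median log2 fold change 0.03). Next came Rnd1, a small GTPase that binds plexins, at -1.32 ± 0.32 (adjusted p = 0.113, edgeR), and Cd72, which binds Sema4D on B cells, at -0.94 ± 0.23 (adjusted p = 0.117, edgeR), neither of which passed. DESeq2, the GC and length offset and the fit without isotype 2 called both, with adjusted p-values between 0.00305 and 0.346 for Rnd1 and between 0.00517 and 0.344 for Cd72 among the alternatives. The list thus had 4 lower rather than 2 under DESeq2 and under the offset. Among 16 Eph and ephrin effectors, 0 were called in edgeR and 0 had an unadjusted p under 0.05 (median 0.23). With isotype 2 and 5 alone 1 was lower, Sdcbp, encoding syntenin, at -0.31 (by edgeR, adjusted p = 0.0246); with all 8 libraries it was at 0.24 (adjusted p = 0.625, edgeR), and among the alternatives its adjusted p lay between 0.0246 and 0.968. Among 20 genes of other guidance families, netrins, slits and repulsive guidance molecules among them, 0 were called and 5 had an unadjusted p under 0.05, near the 17.9% of all genes (median 0.13). In that list Ntn1, encoding netrin-1, had a log2 fold change of -0.65 ± 0.23 (adjusted p = 0.276, edgeR), and Rgmb, a BMP co-receptor, one of -0.38 ± 0.14 (adjusted p = 0.277, edgeR). Rgmb was called by DESeq2 (adjusted p = 0.0272), with the GC and length offset (by edgeR, adjusted p = 0.0452) and with isotype 2 and 5 alone (by edgeR, adjusted p = 0.0491). Its adjusted p ran from 0.0272 to 0.486 over the alternatives.

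Among the remaining semaphorins, Sema7a, a GPI-anchored semaphorin that binds integrins and plexin-C1, stood at 188, 309.5, 228 and 193 CPM in the isotype libraries, against 235, 236, 252 and 257 CPM in those given anti-CSF1R. Isotype 3 was the highest library, and isotype 2 and 5 were the lowest. The log2 fold change was 0.09 ± 0.18 (adjusted p = 0.722, edgeR) with all 8 libraries and 0.36 ± 0.07 with isotype 2 and 5 alone, where it passed (by edgeR, adjusted p = 0.0200, with 0.0200 and 0.946 as the extremes among 17 alternatives). Its level per kb of the longest GENCODE M21 transcript, 72.0 CPM per kb over both groups, was the highest of the semaphorins, ahead of Sema4d at 34.7.

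Sema6d, a transmembrane ligand of plexin-A1, stood at 152, 50.1, 48.3 and 148 CPM in the isotype libraries, against 176, 171, 189 and 178 CPM in those given anti-CSF1R. Its groups did not overlap, and isotype 3 and 4 lay far below isotype 2 and 5. The log2 fold change of 0.84 ± 0.39 (adjusted p = 0.278, edgeR) came to 0.25 (by edgeR, adjusted p = 0.0714) without them. Sema3c, a secreted class 3 semaphorin, stood at 14.4, 4.28, 8.21 and 10.5 CPM in the isotype libraries, against 6.13, 6.76, 7.13 and 3.83 CPM in those given anti-CSF1R. The groups overlapped, and the log2 fold change was -0.65 ± 0.35 (adjusted p = 0.296, edgeR), -1.06 with isotype 2 and 5 alone (by edgeR, adjusted p = 0.0659). A GC and length offset gave -1.19, and only that fit called it (by edgeR, adjusted p = 0.0476; 2.16% of all genes lower), and its adjusted p ran from there to 0.486. Sema5a, Sema3d and Sema6a, with log2 fold changes of 0.70, 0.64 and 0.58, stood at 0.14, 0.01 and 0.22 with isotype 2 and 5 alone, and none passed. Sema4g, whose groups did not overlap, lay at 10.6, 10.4, 10.4 and 11.4 CPM in the isotype libraries, against 11.8, 12.1, 11.6 and 13.0 CPM in those given anti-CSF1R, a log2 fold change of 0.18 ± 0.13 (adjusted p = 0.354, edgeR), or 0.14 with isotype 2 and 5 alone. The other 10 semaphorins (Sema3e, Sema3f, Sema3g, Sema4a, Sema4b, Sema4c, Sema4f, Sema5b, Sema6b and Sema6c) had log2 fold changes from -0.52 for Sema4f to 0.32 for Sema3e, and 0 of them passed in either fit. Over the 20 semaphorins the median was 0.07 with all 8 libraries and 0.14 with isotype 2 and 5 alone.

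Among plexins and neuropilins, Nrp2, which binds class 3 semaphorins and vascular growth factors, had the highest level of all guidance genes at 103 CPM per kb. It stood at 699.9, 473, 656 and 656 CPM in the isotype libraries, against 765, 735, 769 and 782 CPM in those given anti-CSF1R, without overlap, with a log2 fold change of 0.30 ± 0.16 (adjusted p = 0.297, edgeR), or 0.17 with isotype 2 and 5 alone. Plxnd1, a vascular plexin, stood at 288, 496, 381 and 308 CPM in the isotype libraries, against 304, 309, 314 and 338 CPM in those given anti-CSF1R; its groups overlapped, with a log2 fold change of -0.22 ± 0.19 (adjusted p = 0.417, edgeR), or 0.08 with isotype 2 and 5 alone. Plxna2, a receptor of class 3 and class 6 semaphorins, stood at 103, 47.1, 49.6 and 89.7 CPM in the isotype libraries, against 103, 116, 113 and 134 CPM in those given anti-CSF1R, and every anti-CSF1R library lay above every isotype library by a narrow margin. Its log2 fold change was 0.69 ± 0.27 (adjusted p = 0.278, edgeR), and 0.27 with isotype 2 and 5 alone. Plxnb2, another receptor of class 4 semaphorins, stood at 232, 433, 325 and 242 CPM in the isotype libraries, against 222, 214, 224 and 211 CPM in those given anti-CSF1R, without overlap. Its log2 fold change was -0.50 ± 0.21 (adjusted p = 0.278, edgeR), and -0.13 with isotype 2 and 5 alone. Plxnc1, the plexin that binds Sema7A, had a log2 fold change of 0.04 ± 0.36 (adjusted p = 0.938, edgeR) that turned to -0.47 with isotype 2 and 5 alone. Plxna3, Plxna4 and Plxnb3 lay between -0.55 and 0.00 and did not pass. Over the 9 plexins the median was -0.13 with all 8 libraries and 0.02 with isotype 2 and 5 alone. Plxna4os1 lies antisense to Plxna4; no source used here gives the strand setting of the counting, so reads of the pair cannot be told apart, and its counts were 8 to 28 per library.

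Of the ephrins, Efnb1, a transmembrane ligand whose human gene is mutated in craniofrontonasal syndrome, had the highest level at 47.1 CPM per kb. It stood at 123, 227, 189.8 and 116 CPM in the isotype libraries, against 134, 136, 149.6 and 149.8 CPM in those given anti-CSF1R, with overlap and a log2 fold change of -0.20 ± 0.23 (adjusted p = 0.518, edgeR). The sign turned with isotype 2 and 5 alone, to 0.25 (by edgeR, adjusted p = 0.0990). Efna1, a GPI-anchored ligand, was next among the ephrins at 22.0 CPM per kb and stood at 31.8, 60.3, 44.1 and 30.7 CPM in the isotype libraries, against 31.4, 29.8, 27.1 and 31.8 CPM in those given anti-CSF1R; its log2 fold change was -0.48 ± 0.22 (adjusted p = 0.280, edgeR), and -0.06 with isotype 2 and 5 alone. Efna5, also GPI-anchored and without overlap between its groups, lay at 48.0, 32.7, 34.8 and 60.4 CPM in the isotype libraries, against 66.7, 66.6, 66.5 and 60.7 CPM in those given anti-CSF1R. Its isotype 5 library came within 1 CPM of its lowest anti-CSF1R library, and the log2 fold change was 0.57 ± 0.21 (adjusted p = 0.277, edgeR), or 0.26 with isotype 2 and 5 alone. Efna3, Efna4 and Efnb3 had log2 fold changes of -0.04, -0.24 and -0.15, and 0 of the 3 passed. The median over the 8 ephrins was -0.18 with all 8 libraries and 0.11 with isotype 2 and 5 alone.

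Epha2 and Ephb4, both on the osteoblast side, had the highest levels of the Eph receptors, at 22.6 and 21.4 CPM per kb. Ephb2, a receptor of B-type ephrins, stood at 52.9, 69.1, 74.7 and 56.5 CPM in the isotype libraries, against 50.5, 45.5, 52.0 and 48.1 CPM in those given anti-CSF1R, without overlap. Its log2 fold change was -0.37 ± 0.15 (adjusted p = 0.278, edgeR), and -0.16 with isotype 2 and 5 alone. Epha8 had the lowest log2 fold change with all 8 libraries, -1.09 ± 0.39 (adjusted p = 0.274, edgeR), at a low level of 0.49 to 2.25 CPM with overlapping groups; with isotype 2 and 5 alone it was -0.34, and Sema3c was the lowest. Epha3 and Epha4, receptors of A-type ephrins, had log2 fold changes of 0.67 ± 0.41 and 0.66 ± 0.40 with all 8 libraries and of 0.06 and 0.06 with isotype 2 and 5 alone. Epha1, Epha5, Epha7, Ephb1, Ephb3 and Ephb6 lay between -0.62 for Epha1 and 0.45 for Epha7. Over the 12 tested Eph receptors the median was -0.17 with all 8 libraries and -0.03 with isotype 2 and 5 alone, and 0 passed in either fit.

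In order of level per kb, Nrp2 and Sema7a were followed by Plxnd1 at 49.6, Efnb1 at 47.1, Plxnb2 at 40.4, Sema4d at 34.7 and Nrp1 at 23.9 CPM per kb. Of the 51 neighbouring pairs in the order, only 2 (Plxna4 with Ephb1, and Ephb1 with Sema5b) had ranges over the 8 libraries that did not overlap. Compared within each library, 4 pairs kept 1 order in all 8 libraries: these 2, Sema7a above Plxnd1, and Sema4c above Plxna1. The order of the other neighbours changed from library to library.

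The GC content of the transcript went with these patterns. The 16 genes in which isotype 3 and 4 lay below the other libraries had 39.2% to 57.5% GC, and the 22 in which they lay above had 53.4% to 63.5%. Over the 52 genes the log2 fold change with all 8 libraries had a Spearman correlation of -0.50 with GC, and that with isotype 2 and 5 alone 0.17; both share the 4 anti-CSF1R libraries. Library size scaling without TMM moved the median of all genes from 0.03 to 0.19 on the log2 scale, and that of the 52 guidance genes from -0.06 to 0.11.

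**Figure D5:**
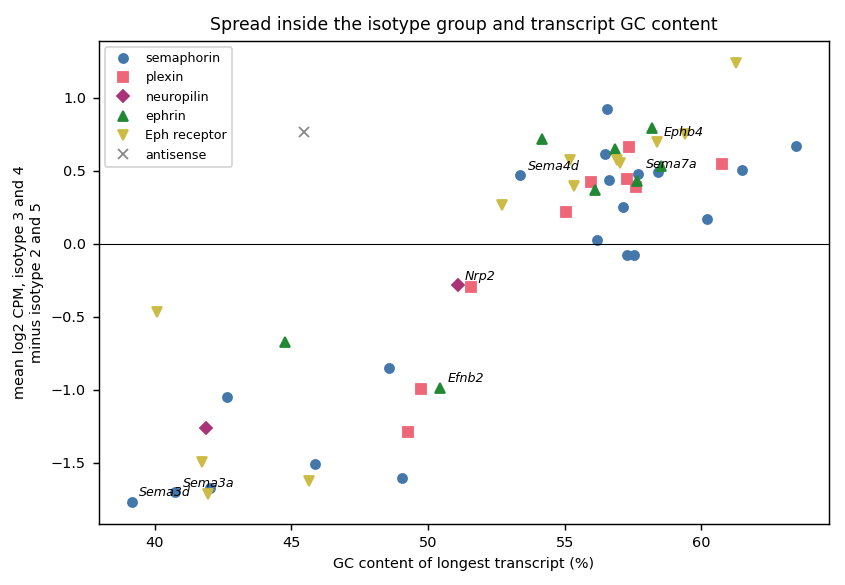
Each tested guidance gene by the GC content of its longest transcript (x axis, percent) against the mean log2 CPM of isotype 3 and 4 minus that of isotype 2 and 5 (y axis), with 1 point per gene and symbols by family. The difference goes up with GC, with a Spearman correlation of 0.72 over 52 genes.

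Markers of other cells that the dissected bone could hold were at these levels. Endothelial markers, of interest beside Efnb2, Ephb4, Nrp1 and Plxnd1, were called in 0 of 8 (3 had an unadjusted p under 0.05) and summed to 613 to 686 CPM for isotype against 738 to 832 CPM for anti-CSF1R, so the groups did not overlap. In the fit with isotype 2 and 5 alone 1 of 8 was higher (Emcn) and 6 had an unadjusted p under 0.05, as 6 had with the GC and length offset, where 0 were called. Neural and Schwann cell markers (0 of 6 tested called, 7 listed) summed to 30.5 to 49.7 CPM for isotype against 28.8 to 37.0 CPM for anti-CSF1R, with Snap25 at 0 in at least 1 library. Skeletal muscle markers (0 of 3 tested called, 6 listed) summed to 16.1, 42.7, 2.18 and 2.59 CPM in isotype 2, 3, 4 and 5, against 2.25 to 2.85 CPM for anti-CSF1R. Isotype 2 and 3 thus held most of this signal, and Myh1, Myh4, Ckm and Myh8 were at 0 in at least 1 library. Of the 3 tested, 2 had an unadjusted p under 0.05 in edgeR, both lower with anti-CSF1R, and DESeq2 called 2 lower. Keratinocyte markers (0 of 1 tested called, 3 listed) summed to 2.48 to 2.88 CPM for isotype against 2.61 to 3.32 CPM for anti-CSF1R, with Krt5 and Krt14 at 0 in at least 1. B and T cell markers were lower in 1 (Cd4) of 3 tested (5 listed) and summed to 16.7 to 30.5 CPM for isotype against 9.57 to 19.1 CPM for anti-CSF1R, with Cd3e at 0 in at least 1. Their part in the levels of guidance genes was not tested.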

How the data were processed

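Parietal bone RNA was made into TruSeq Stranded mRNA libraries and sequenced as paired 101 bp reads, per the labels' protocols. The authors deposited raw counts per gene. STAR 2.7.10b, featureCounts 1.6.3 and the builds GRCm38 and GRCm39 are named, per the submitters' processing notes; which build, annotation and strand setting lie behind the counts is not stated in the sources used here. Of counts from 1 to 10, 82.8% to 84.7% per library were even, so both mates of a pair appear to be counted and counts overstate fragments. A floor of 3 counts was 0.0434 to 0.0522 CPM and covers counting error only.

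The members and lists were chosen with earlier results of these data known. Genes were filtered (filterByExpr), scaled by TMM and tested with edgeR 4.0.16 (quasi-likelihood, robust) in R 4.3.3, with Benjamini-Hochberg adjustment over 17028 genes and a threshold of 0.05. Standard errors are the log2 fold change divided by the root of F. Alternatives were DESeq2 1.42.0, limma-voom (limma 3.58.1), other scalings and filters, halved counts, isotype 2 and 5 alone, each library left out, and an offset from natural splines (5 df each) of the GC content and of the log2 length, both taken from the longest transcript in GENCODE M21, which 94.0% of tested genes had. Pair differences used log2 CPM with a prior count of 2. Tests were checked on simulated counts in which no library stood apart, so the check does not cover the spread seen in the isotype group. Between any 2 libraries of a group, the median squared difference was at least 4.38 times that expected from sampling noise. None was therefore treated as a repeat, though this cannot show whether 2 libraries are separate preparations of the same sample. RefSeq promoters matched 47 members.

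Genes named in full were Sema3a, Sema4d, Efnb2 and Ephb4, both bone-side lists, genes past the test, genes with an unadjusted p under 0.05 and no overlap, and the 2 with the highest level in each of 4 families. Sema6d, Sema3c, Sema4g, Sema5a, Sema3d, Sema6a, Epha8 and the named pathway genes were chosen after their values were seen.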

Additional observations from a re-analysis of the deposited data

Results flagged for a closer look

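Of 112 groups of 4 libraries examined, 3 held a library far from the other 3 of its group, by a gap over Dixon's critical value; chance gives about 1 in 20. Sema3a, at 27.9 CPM in anti-CSF1R 7, was the lowest of its group. Sema3f, at 21.1 CPM in anti-CSF1R 10, was the highest of its group. Efna5, at 60.7 CPM in anti-CSF1R 10, was the lowest of its group.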

How the results depend on the processing

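The count of guidance genes called was 0 in each of the 17 alternatives, except that 1 lower gene was called under DESeq2 (Sema4d), 1 with isotype 2 and 5 alone (Sema4d) and 1 with the GC and length offset (Sema3c), and 1 higher gene with isotype 2 and 5 alone (Sema7a). Efnb2 minus Ephb4 turned to -0.38 with isotype 2 and 5 alone; the other 3 pairs kept their sign. Of 879 values of guidance genes under alternatives, 75 turned sign, in 26 genes; the cause was not tested. None of these genes was called with all 8 libraries.

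Log2 fold changes that turned with isotype 2 and 5 alone were Sema4a 0.28, Efna3 0.13, Efna4 0.12, Epha7 -0.11, Epha2 0.19, Sema3e -0.30, Ephb4 0.14, Plxna4os1 0.14, Ephb6 0.21, Plxna1 0.018, Plxnd1 0.084, Efnb2 -0.26, Sema3b 0.17, Plxnb1 0.15, Plxnc1 -0.47, Efnb3 0.090, Sema6b 0.25, Plxna3 0.11, Efnb1 0.25 and the pathway gene Sdcbp -0.31. With the GC and length offset they were Sema4a 0.24, Efna3 0.28, Efna4 0.19, Epha7 -0.082, Epha2 0.13, Sema3e -0.17, Ephb6 0.085, Plxnc1 -0.13, Efnb3 0.16, Sema6b 0.15, Plxna3 0.015, Efnb1 0.13 and the pathway gene Sdcbp -0.092. With library size alone they were Sema4a 0.12, Efna3 0.12, Epha2 0.055, Epha5 0.10, Plxna4 0.018, Plxnb1 0.12, Efnb3 0.032, Sema6b 0.057 and Plxna3 0.17. DESeq2 gave Sema4c -0.023, and RLE factors Sema4c -0.024. Plxna3 became 0.0044 under a filter of 1 CPM in 4 libraries, 0.00097 with counts halved, 0.0055 in limma-voom and 0.0060 without a filter. Leaving out 1 library at a time, 15 genes turned sign in some fit, with ranges of Efna3 -0.22 to 0.038, Efnb2 -0.045 to 0.44, Efnb3 -0.28 to 0.031, Epha2 -0.25 to 0.031, Epha5 -0.20 to 0.18, Ephb1 -0.027 to 0.17, Plxna3 -0.074 to 0.087, Plxnb1 -0.14 to 0.015, Plxnc1 -0.18 to 0.41, Sema3f -0.11 to 0.21, Sema3g -0.018 to 0.27, Sema4a -0.20 to 0.065, Sema4c -0.082 to 0.075, Sema6b -0.29 to 0.071 and Sema7a -0.025 to 0.27.

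No paired analysis was possible because the replicate numbers differ between the groups. Calls over all genes were 144 with all 8 libraries and fell whichever anti-CSF1R library was left out. They were 0 without anti-CSF1R 7, 0 without anti-CSF1R 8, 4 without anti-CSF1R 9 and 14 without anti-CSF1R 10. Without isotype 2, 3, 4 or 5 they were 260, 106, 35 and 234. The cause of these changes in the calls was not tested. Epha10 and Epha6, with 4 and 10 counts in all, lay too low to be tested.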
